A study of Mus musculus with 15 samples.

Results

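The transcripts of nuclear receptors were measured in dendritic cells (DCs) and macrophages (mϕ) of the small intestinal lamina propria (LP), the connective tissue under the gut epithelium. Members were all genes of the array annotation whose symbol has the systematic form of the nuclear receptor nomenclature (Nr, a subfamily digit, a letter from a to h and a number), with the 3 Nr4a genes left out, together with Ppara, Ppard, Pparg, Vdr, Thra, Thrb, Rora, Rorb, Esrra and Ahr. This rule found 28 genes among 19938 genes with a probeset of their own, and each of the 28 had 1 probeset. Ahr is a ligand-activated factor of another protein family (basic helix-loop-helix PAS) and was kept because the rule names it.

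Populations from the small intestine of wild-type (WT) mice at steady state were arrayed, 5 in number, with 3 arrays each and 15 in all. They were CD64+ mϕ, CD103-CD11b- DCs, CD103+CD11b+ DCs, CD103-CD11b+ DCs and CD103+CD11b- DCs, all separated by flow cytometry from one kind of LP preparation, the DCs as CD64- cells. The mϕ were MHCII+CD11b+ cells without Ly6C. The study's WT mice were C57BL/6, no allele, treatment or time distinguishes the groups, and the methods give one age range and both sexes for all mice of the study, with no age or sex for the mice behind each array. The methods speak of biological samples without giving the number of mice behind an array, so p-values measure only the spread between these arrays.

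Nuclear receptors are transcription factors that bind DNA through a pair of zinc fingers and change activity when a small lipophilic ligand enters a pocket at the other end of the protein. Many of them pair with a retinoid X receptor (RXR) and recognise repeats of the hexamer AGGTCA. In the gut wall, mϕ take up dying cells and their lipids, a setting in which the liver X receptors (oxysterol sensors that switch on cholesterol export) and the PPARs (fatty acid sensors) are best known, whereas Ahr senses indoles from diet and microbes and Vdr binds vitamin D.

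The labels held on the genes used for sorting. Itgae, which encodes CD103, read 10.24 to 10.96 on the log2 scale on the arrays of both CD103+ DC subsets and 4.87 to 8.96 elsewhere. Itgam, which encodes CD11b, read 9.44 to 10.42 on mϕ and CD11b+ DC arrays and 4.76 to 7.02 on CD11b- DC arrays, and Fcgr1, which encodes CD64, read 8.69 to 9.08 in mϕ and 3.69 to 5.02 in DCs. Other cell types left traces that differed between arrays. The mean of the epithelial markers was 8.07 on mϕ replicate 2, against 6.43 and 6.52 on the other mϕ arrays, and the mean of the pancreatic acinar markers was 7.37 on mϕ replicate 2, against 4.94 and 5.11. In every DC subset 1 array was likewise highest in pancreatic markers, namely replicate 2 of CD103-CD11b- DCs (8.77), of CD103+CD11b+ DCs (7.91) and of CD103+CD11b- DCs (9.02) and replicate 3 of CD103-CD11b+ DCs (7.82), with the other 8 DC arrays at 5.01 to 7.16. The mean of 11 mϕ markers was 10.58 to 10.68 on mϕ arrays, 5.98 to 7.15 on CD103-CD11b- arrays, 6.12 to 6.39 on CD103+CD11b+ arrays, 7.23 to 7.63 on CD103-CD11b+ arrays and 5.43 to 5.55 on CD103+CD11b- arrays. In such bulk samples, fewer cells of a type and less RNA per cell cannot be told apart.

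The start regions of 3 receptors are shown because Nr1h3, Pparg and Ppard are the genes whose differences between populations carry most of the account that follows. Each line is the first RefSeq window of the gene (build GRCm38.p6), 300 bases long and mostly before an annotated start, 5′ to 3′ on the gene's own strand. Capitals mark the receptor half-site AGGTCA or the ETS-type core GAGGAA, on either strand (as TGACCT or TTCCTC on the other), and no match overlapped another in these windows.
Nr1h3 (chr2:91195067-91195366, minus strand): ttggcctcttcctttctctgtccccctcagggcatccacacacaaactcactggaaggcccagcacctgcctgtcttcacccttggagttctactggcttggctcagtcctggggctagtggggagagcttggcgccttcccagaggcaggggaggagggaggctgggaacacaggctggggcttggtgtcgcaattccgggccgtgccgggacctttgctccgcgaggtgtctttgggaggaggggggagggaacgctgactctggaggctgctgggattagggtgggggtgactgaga
Pparg (chr6:115360894-115361193, plus strand): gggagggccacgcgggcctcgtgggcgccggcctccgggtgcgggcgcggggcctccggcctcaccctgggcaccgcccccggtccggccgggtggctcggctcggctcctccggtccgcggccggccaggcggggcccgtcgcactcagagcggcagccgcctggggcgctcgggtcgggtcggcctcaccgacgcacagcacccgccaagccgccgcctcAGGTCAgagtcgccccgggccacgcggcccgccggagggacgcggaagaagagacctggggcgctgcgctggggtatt
Ppard (chr17:28232504-28232803, plus strand): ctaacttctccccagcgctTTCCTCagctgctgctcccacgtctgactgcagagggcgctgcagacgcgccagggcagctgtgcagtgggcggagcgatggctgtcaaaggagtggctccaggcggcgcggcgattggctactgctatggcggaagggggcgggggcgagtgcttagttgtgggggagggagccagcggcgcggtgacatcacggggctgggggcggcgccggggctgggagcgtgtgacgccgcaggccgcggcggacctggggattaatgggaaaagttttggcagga

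The first Nr1h3 window held neither motif, and the other of its 2 windows held GAGGAA. Of the 3 Pparg windows, 2 held AGGTCA and 1 held GAGGAA, and the single Ppard window held 1 GAGGAA. RefSeq windows were found for 24 of the 28 members, and none was found for Ahr, Nr3c1, Nr5a1 or Thra. AGGTCA occurred in at least 1 window of 7 of those 24 members (Nr0b1, Nr1d2, Nr1h4, Nr5a2, Nr6a1, Pparg and Thrb), and 8 of their 32 windows held it, beside 16.3% of all 32851 windows of the same length. GAGGAA occurred in 12 of the 32, beside 28.3% of all windows. These letters were matched only by sequence, and no binding was measured.

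As a first view of all members, the signal of 11 of the 28 averaged over 6 on the log2 scale in at least 1 population, and 7 did so in every population (Ahr, Esrra, Nr2c2, Nr2f6, Nr3c1, Ppard and Vdr). Between 7 and 10 members passed this level in any one population, beside 36.8% to 37.3% of all genes. At the other end, 14 members averaged under 5 in every population, with array values between 2.99 and 5.17. These were Nr0b1, Nr0b2, Nr1h4, Nr1h5, Nr2e1, Nr2f1, Nr2f2, Nr3c2, Nr5a1, Nr5a2, Ppara, Rora, Rorb and Thrb, among them the receptors best known from liver, adrenal gland, kidney and brain. A low signal on this array does not by itself show that a transcript was lacking, because probes differ in brightness. For the same reason these counts sort probes by a common limit and do not rank the genes by abundance.

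**Figure D1:**
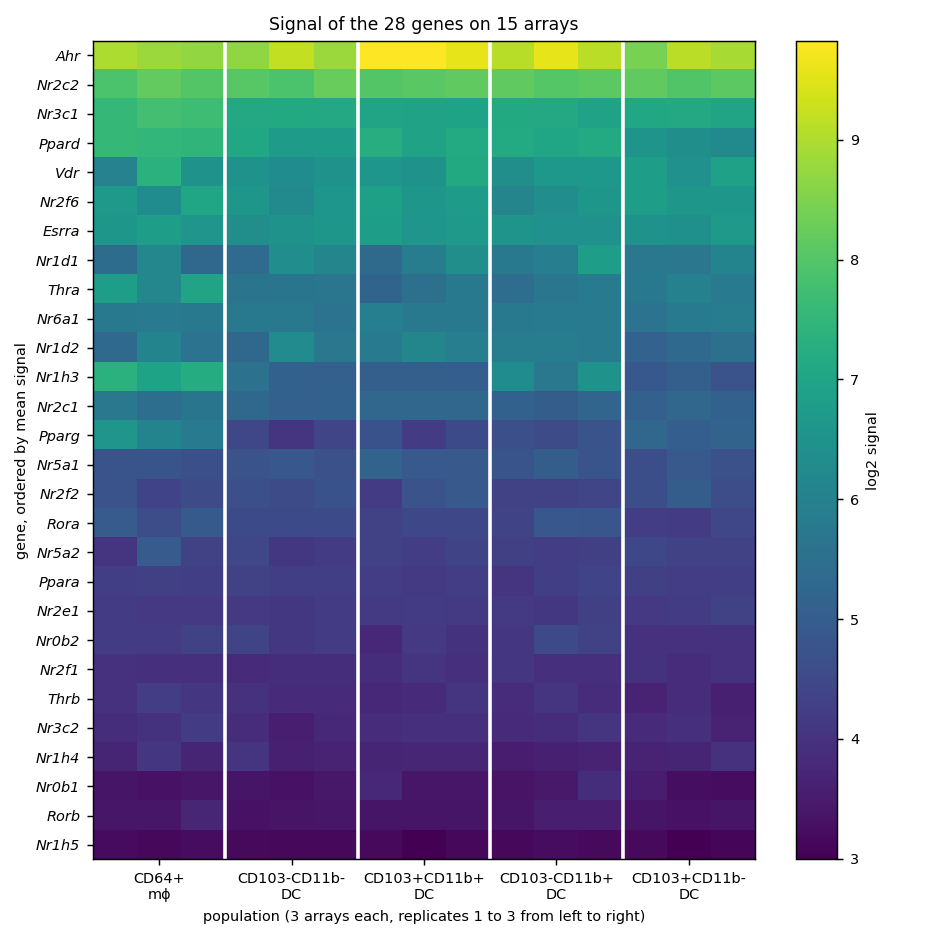
Log2 signal (colour) of the 28 genes (rows, ordered by mean) on 15 arrays (columns, 3 per population, populations separated by white lines). Nr1h3 is bright in CD64+ mϕ (6.95 to 7.35) and intermediate in CD103-CD11b+ DCs (5.73 to 6.48), Pparg is bright in mϕ (5.79 to 6.56), and most other rows change little from left to right.

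An F test over the 5 populations (limma, Benjamini-Hochberg over all genes) found 4 members whose adjusted p was below 0.01 and whose population means lay more than 1 apart on the log2 scale, namely Nr1h3, Ppard, Pparg and Thra. This is 4 of 28, beside 10.7% of all genes. Without the size limit, Ahr, Nr2c1 and Nr3c1 joined them, which made 7 of 28 beside 19.6% of all genes. Both shares lie near those of all genes, so the receptors as a group did not stand out by how often they differed. The other 21 members did not pass, and their population means spanned a median of 0.25 and at most 0.62 (Nr1d2).

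In mϕ set against the mean of the 4 DC subsets, 2 members were called, which required an adjusted p below 0.01 and a difference of more than 1 on the log2 scale, and both were higher in mϕ. They were Nr1h3 and Pparg, 2 of 28 beside 5.57% of all genes. At an adjusted p under 0.01 and any size, Thra, Ppard, Nr3c1 and Nr2c1 were also higher in mϕ and no member was lower, 6 of 28 beside 17.6% of all genes, while 1683 genes were higher and 1835 were lower in mϕ over the whole array. The median difference over the 28 members was 0.10, beside -0.00 over all genes.

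**Figure D2:**
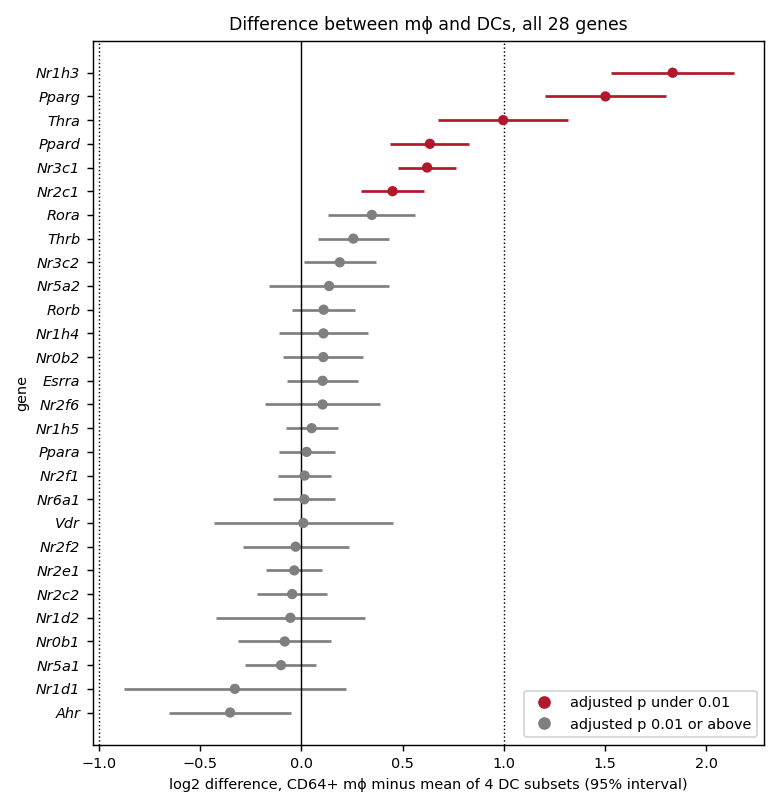
Log2 difference of each of the 28 genes between CD64+ mϕ and the mean of the 4 DC subsets (horizontal axis; points with 95% intervals from limma; dotted lines at -1 and 1). Red points have an adjusted p under 0.01. Nr1h3 (1.83) and Pparg (1.501) lie past 1, Thra (0.996) lies on the line and Ahr (-0.35) is lowest.

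Among the lipid sensors, Nr1h3 differed most between populations. It encodes the liver X receptor LXRα, which is bound by oxysterols and drives genes of cholesterol efflux. Its log2 signal was 7.35, 6.95 and 7.22 on the 3 mϕ arrays. The CD103-CD11b- arrays read 5.58, 5.12 and 5.08, the CD103+CD11b+ arrays 5.05, 5.05 and 5.02, the CD103-CD11b+ arrays 6.33, 5.73 and 6.48 and the CD103+CD11b- arrays 4.88, 5.05 and 4.73. All 3 mϕ arrays lay above all 12 DC arrays, and all 3 CD103-CD11b+ arrays lay above the other 9 DC arrays. Set against the average DC subset, Nr1h3 was 3.56-fold higher in mϕ (log2 difference 1.83, SE 0.14, adjusted p = 1.1e-07 by limma). The difference was 2.29 from CD103+CD11b- DCs, 2.13 from CD103+CD11b+ DCs and 1.91 from CD103-CD11b- DCs, and 0.9957 (SE 0.18, adjusted p = 9.0e-04) from CD103-CD11b+ DCs, just short of the size limit of 1.

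Within the DCs, Nr1h3 was the only member called between subsets. At 6.18 ± 0.39 in CD103-CD11b+ DCs, against 4.89 ± 0.16 in the CD103+CD11b- subset, it was 2.45-fold higher (log2 mean ± SD, n = 3 each; log2 difference 1.29, SE 0.18, adjusted p = 1.4e-04 by limma). CD103+CD11b+ DCs, at 5.04 ± 0.02, lay below CD103-CD11b+ DCs (log2 difference -1.14, SE 0.18, adjusted p = 0.00308 by limma). CD103-CD11b- DCs also lay below CD103-CD11b+ DCs (Nr1h3 log2 difference -0.92, adjusted p = 0.00967), although this passed in 3 of 15 fits with 1 array left out (adjusted p of 0.00141 to 0.0533) and not without the array highest in pancreatic markers in each population (-0.70, adjusted p = 0.155). The CD103-CD11b- arrays did not overlap those of the 2 CD103+ subsets, but their differences of 0.22 from CD103+CD11b+ DCs and 0.38 from CD103+CD11b- DCs did not pass (adjusted p of 0.634 and 0.273). The levels thus ran from mϕ through CD103-CD11b+ DCs to the other 3 subsets, among which no difference passed the test. The call between the 2 CD11b+ subsets was lost without any 1 of the 3 CD103+CD11b+ arrays or without CD103-CD11b+ replicate 1 or 3 (Nr1h3 log2 differences of -1.14 to -0.99, adjusted p of 0.0147 to 0.0229), and without the array highest in pancreatic markers in each population (-0.99, adjusted p = 0.0766).

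Most markers of mϕ were higher in CD103-CD11b+ than in CD103+CD11b- DCs, as Nr1h3 was, and some differed where Nr1h3 did not. In CD103-CD11b+ against CD103+CD11b- DCs, 7 of 11 mϕ markers were called higher and none lower, beside 3.17% of all genes called. These 7 were C1qb, Csf1r, C1qc, C1qa, Cd14, Adgre1 and Cx3cr1. At an adjusted p under 0.01 by limma and any size, 9 of 11 passed in that comparison, beside 6.72% of all genes. In CD103+CD11b+ against CD103-CD11b+ DCs, 4 of 11 were called lower, beside 0.461% of all genes called. In CD103+CD11b+ against CD103+CD11b- DCs, where Nr1h3 differed by 0.16 (adjusted p = 0.723 by limma), 3 of 11 were called higher (Adgre1, Csf1r and Cd14). Over all genes, 3.20% were called in that comparison. Adgre1 read 7.50 to 8.09 in CD103+CD11b+ DCs, above the 6.23 to 7.25 of the CD103-CD11b+ subset. The array of CD103-CD11b- DCs with the highest mϕ marker mean, replicate 1 at 7.15 against 5.98 and 6.14, was also the one with the highest Nr1h3 (5.58). The sort marker of mϕ itself, Fcgr1, read 4.59 to 5.02 in CD103-CD11b+ DCs, beside 8.69 to 9.08 in mϕ and at most 4.55 on the other DC arrays. Mertk, another mϕ marker, read 4.10 to 4.40 there, beside 7.31 to 7.78 in mϕ and at most 4.04 on the other DC arrays. The part of these markers in the Nr1h3 differences between DC subsets was not tested.

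**Figure D3:**
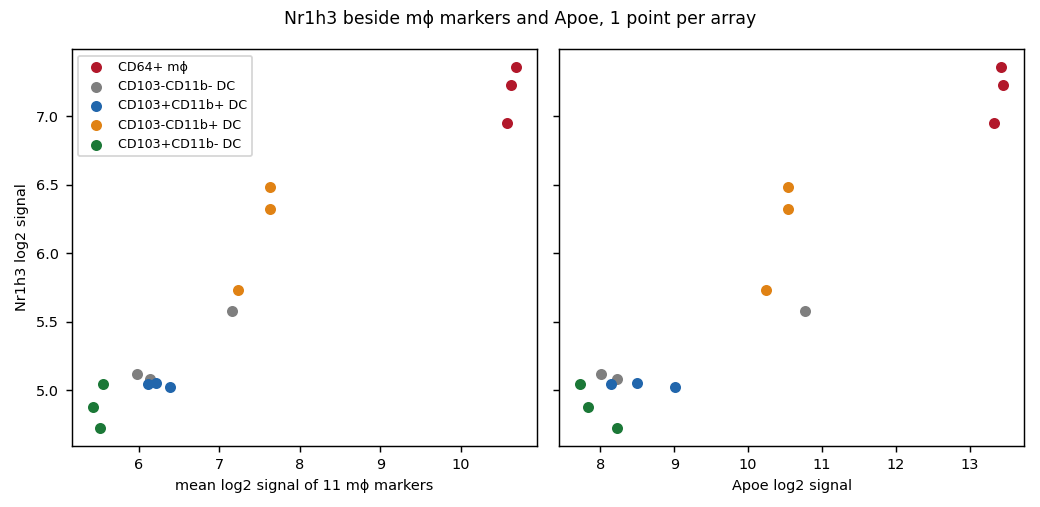
Nr1h3 log2 signal (vertical axis) on each of the 15 arrays against the mean log2 signal of 11 mϕ markers (left) and the log2 signal of Apoe (right), coloured by population. The 3 mϕ arrays lie at the upper right, the 3 CD103-CD11b+ arrays and replicate 1 of CD103-CD11b- DCs (5.58) lie between them and the remaining DC arrays, which read 4.73 to 5.12.

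The genes that liver X receptors are known to switch on were followed as a list of 14 measured genes. In mϕ, 5 were called higher than in the mean of the DCs and 1 was called lower, beside 5.57% of all genes called in either direction. The median difference of the list was 0.74, beside -0.00 over all genes. The 5 were Apoe (log2 difference 4.42), Mertk (3.54), Abca1 (2.75), Pltp (2.42) and Apoc1 (1.46), which include the sterol exporter Abca1 and the lipoprotein component Apoe. Smpdl3a, a sphingomyelinase-like enzyme, was the one called lower (-1.03, adjusted p = 1.1e-04 by limma). Of the 8 not called, Scd2 read lower on every mϕ array (6.95 to 7.41) than on any DC array (7.53 to 8.40). Abcg1, Mylip and Lpl read higher on average in mϕ, with some overlap. The overlap of Abcg1 and Lpl was with CD103-CD11b+ DCs, and that of Mylip was with CD103+CD11b- DCs. Srebf1, Scd1, Lpcat3 and Cd5l did not pass the F test over the 5 populations (adjusted p of 0.307 to 0.683 by limma). Mertk, a receptor for dying cells, is also 1 of the 11 mϕ markers. Abca1 read 6.99 to 7.01 on the mϕ arrays and between 4.01 and 4.59 on all 12 DC arrays, with CD103-CD11b+ DCs (4.27 to 4.39) within the range of the other DCs.

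Between DC subsets the same list gave 2 calls in CD103-CD11b+ against CD103+CD11b- DCs, both higher (Pltp by 3.22 and Apoe by 2.52), and 1 in CD103+CD11b+ against CD103+CD11b- DCs (Pltp, 3.87). Over all genes, 3.17% and 3.20% were called in these comparisons. Pltp, the phospholipid transfer protein, read 9.54 to 9.78 in CD103+CD11b+ DCs, where Nr1h3 read 5.02 to 5.05. Abcg1 and Lpl read 6.44 to 6.61 and 4.60 to 4.72 on the CD103-CD11b+ arrays, above all other DC arrays (at most 6.27 and 4.37). Smpdl3a, called lower in mϕ, was also highest among the DCs there (10.32 to 10.64). Mylip was highest among the DCs on the CD103+CD11b- arrays (6.53 to 6.85). Apoe stood at 10.77 on CD103-CD11b- replicate 1, against 8.003 and 8.22 on the other 2 arrays of that subset, the same array that was highest in mϕ markers. Between CD103+CD11b+ and CD103-CD11b+ DCs 0 of the 14 were called by limma, beside 0.461% of all genes, and 7 had an unadjusted p under 0.05. The median difference of the list there was -0.16, beside -0.01 over all genes.

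Pparg was the second receptor called in mϕ. It encodes PPARγ, a fatty acid sensor known from fat cells and from the mϕ of the lung alveoli. It read 6.56, 6.09 and 5.79 on the mϕ arrays. The CD103-CD11b- arrays read 4.45, 4.03 and 4.42, the CD103+CD11b+ arrays 4.71, 4.20 and 4.52, the CD103-CD11b+ arrays 4.66, 4.58 and 4.74 and the CD103+CD11b- arrays 5.25, 5.03 and 5.17. Every mϕ array lay above every DC array, and every CD103+CD11b- array lay above every other DC array. Against the average of the DCs, Pparg was 2.83-fold higher in mϕ (log2 difference 1.501, SE 0.14, adjusted p = 8.7e-07 by limma), by 1.85 over CD103-CD11b- DCs, 1.67 over CD103+CD11b+ DCs, 1.49 over CD103-CD11b+ DCs and 0.9977 over CD103+CD11b- DCs.

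Among the DCs, Pparg had its highest mean in the subset where Nr1h3 had its lowest. All 12 DC values of Pparg were low (4.03 to 5.25), near or under the median signals per array (5.00 to 5.14). It averaged 4.30 ± 0.24 in CD103-CD11b- DCs, against 5.15 ± 0.11 in the CD103+CD11b- subset (SD, n = 3 each; log2 difference -0.85, SE 0.18, adjusted p = 0.00526 by limma), which is under the size limit of 1. CD103+CD11b+ DCs differed from CD103+CD11b- DCs by -0.67 (adjusted p = 0.0214) and CD103-CD11b+ DCs by -0.49 (adjusted p = 0.106). With 1 array left out at a time, the adjusted p of the first of these differences was over 0.01 without any 1 of the CD103+CD11b- arrays or CD103-CD11b- replicate 2 or 3, at 0.0113 to 0.0327. Without the array highest in pancreatic markers in each population, the Pparg difference was -0.77 (adjusted p = 0.0576).

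Ppard encodes PPARδ, which is present in most tissues and acts on fatty acid oxidation. It read over 6 on every array and was lowest in CD103+CD11b- DCs. The mϕ arrays read 7.56, 7.51 and 7.46, the CD103-CD11b- arrays 7.10, 6.74 and 6.74, the CD103+CD11b+ arrays 7.25, 6.93 and 7.17, the CD103-CD11b+ arrays 7.18, 7.03 and 7.17 and the CD103+CD11b- arrays 6.54, 6.41 and 6.26. The 3 CD103+CD11b- arrays lay below all other 12 arrays. Against CD103+CD11b- DCs, Ppard was higher by 1.11 in mϕ (adjusted p = 3.0e-06 by limma), by 0.73 in the CD103-CD11b+ subset (adjusted p = 5.0e-04) and by 0.72 in the CD103+CD11b+ subset (adjusted p = 5.2e-04), each with an SE of 0.12. The 2 CD11b+ subsets differed by -0.01 from each other, with a 95% interval of -0.25 to 0.24. Ppara, the PPAR best known from liver, stayed between population means of 4.21 and 4.28.

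The 12 measured genes of a list of PPAR targets did not move as one group. In mϕ against the DCs, 1 was called higher (Plin2, a lipid droplet coat protein, 1.08) and 1 lower (Acadl, an enzyme of fatty acid oxidation, -1.10), with a median of 0.02. Over all genes, 5.57% were called there. In CD103+CD11b+ against CD103+CD11b- DCs, Fabp5, a fatty acid carrier, was higher by 1.85, and Cd36, a fatty acid and scavenger receptor, Plin2 and Acadl were lower (-3.34, -1.10 and -1.09). In CD103-CD11b+ against CD103+CD11b- DCs, Fabp5 was higher by 2.42 and Cd36 and Acadl were lower (-3.34 and -1.005). Over all genes, 3.20% were called in the first and 3.17% in the second of these DC comparisons. Cd36 read 9.24 to 9.60 in CD103+CD11b- DCs, the DC subset with the highest Pparg, and 7.24 to 7.66 in mϕ, where Pparg was higher still.

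**Figure D4:**
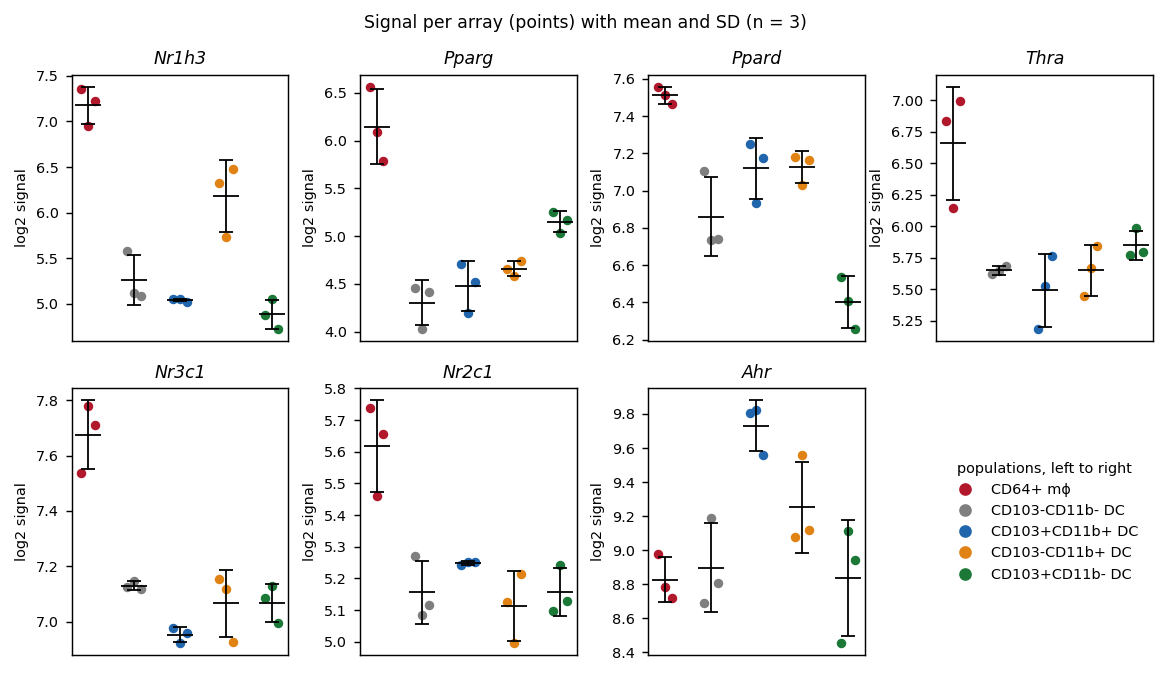
Log2 signal per array (points; bars are mean and SD, n = 3) of the 7 genes with an F test adjusted p under 0.01, with CD64+ mϕ at the left of each panel and CD103+CD11b- DCs at the right, on separate vertical scales that do not start at 0. Nr1h3, Pparg, Ppard, Thra, Nr3c1 and Nr2c1 are highest in mϕ, and Ahr is highest in CD103+CD11b+ DCs (9.56 to 9.83).

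Of the thyroid hormone receptors, Thra was higher in mϕ. It encodes TRα, which binds thyroid hormone in heart, bone and many other tissues. The mϕ arrays read 6.83, 6.14 and 6.99, the CD103-CD11b- arrays 5.62, 5.65 and 5.69, the CD103+CD11b+ arrays 5.19, 5.52 and 5.76, the CD103-CD11b+ arrays 5.44, 5.67 and 5.85 and the CD103+CD11b- arrays 5.77, 5.98 and 5.80. All mϕ arrays lay above all DC arrays, with replicate 2 nearest to them. The log2 difference from the mean of the DCs was 0.996 (SE 0.15, adjusted p = 1.2e-04 by limma), just under the size limit, and it depended on the mϕ arrays. It was 1.25 (adjusted p = 3.0e-06) without replicate 2, the mϕ array with the highest epithelial and pancreatic marker means, 0.91 (adjusted p = 0.0019) without replicate 1 and 0.83 (adjusted p = 0.00166) without replicate 3. Thra overlaps Nr1d1 on chromosome 11 in the RefSeq annotation, so signal of the pair may not be fully separable, and Nr1d1 did not move with it (log2 difference -0.33, adjusted p = 0.45). Thrb, the other thyroid hormone receptor, read 3.60 to 4.24 and differed by 0.26 (adjusted p = 0.0334).

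Nr3c1 encodes the glucocorticoid receptor, which nearly all cells carry. It was high in every population and a little higher in mϕ, at 7.54, 7.78 and 7.71, than on the 12 DC arrays, which spanned 6.92 to 7.15 with a median of 7.10. The groups did not overlap, and the difference of 0.62 (SE 0.07, adjusted p = 4.3e-06 by limma) corresponds to 1.54-fold. Between DC subsets Nr3c1 differed by at most 0.18. Nr3c2, the mineralocorticoid receptor known for salt transport in the kidney, averaged 4.02 in mϕ and 3.83 over the DC subsets (difference 0.19, adjusted p = 0.125).

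Of 12 listed glucocorticoid receptor targets, 2 were called higher in mϕ (Cd163, a haemoglobin scavenger receptor, by 2.76, and Mt1, a metallothionein, by 1.54) and 1 lower (Anxa1, a phospholipid-binding protein, -3.19). Cd163 is also 1 of the 11 mϕ markers. Over all genes, 5.57% were called in mϕ against the DCs. The median of the list was 0.42, beside -0.00 over all genes. At an adjusted p under 0.01 by limma and any size, 9 of the 12 differed, beside 17.6% of all genes. Tsc22d3 read 7.92 to 8.18 in mϕ and at most 7.69 in DCs. Fkbp5 went the other way, at 4.955 to 5.44 in mϕ and at least 5.64 in DCs. In CD103+CD11b+ against CD103+CD11b- DCs, Mt1 was higher by 1.32 and Sgk1 lower (-1.28), and in CD103+CD11b+ against CD103-CD11b+ DCs Errfi1 was higher by 1.10. Mt2 was the single list gene called in CD103-CD11b- DCs against the other DC subsets (1.48). Over all genes, 3.20%, 0.461% and 1.02% were called in these DC comparisons, in this order.

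Nr2c1, an orphan receptor also known as TR2, was 1.37-fold higher in mϕ. It read 5.74, 5.46 and 5.66 on the mϕ arrays and 5.00 to 5.27 on the 12 DC arrays, without overlap (log2 difference 0.45, SE 0.07, adjusted p = 2.3e-04 by limma). Its close relative Nr2c2, or TR4, was steady across all arrays (7.88 to 8.24) and differed by -0.05 between mϕ and DCs, with a 95% interval of -0.22 to 0.13. Nr2f6 differed by 0.10 (95% interval -0.18 to 0.39) and spanned 6.11 to 7.01 over all arrays. Esrra, a regulator of mitochondrial genes, differed by 0.10 (-0.07 to 0.28) and Nr6a1, the germ cell nuclear factor, by 0.01, and Nr2e1, Nr2f1 and Nr2f2, known from the nervous system and from vessels, read under 5 on average everywhere.

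When each DC subset was set against mϕ on its own, no member was called in all 4 comparisons by limma, beside 3.24% of all genes. Nr1h3 and Pparg missed in 1 comparison each and Thra in 1, each by size and not by p. At any size, Nr1h3, Nr2c1, Nr3c1, Pparg and Thra were higher in mϕ in all 4 comparisons, 5 of 28 beside 7.19% of all genes. With 1 array left out at a time, Nr2c1 against CD103+CD11b+ DCs stayed under an adjusted p of 0.01 in 4 of 15 fits (highest 0.0471), Nr2c1 against CD103-CD11b- DCs in 13 and Thra against CD103+CD11b- DCs in 10 (highest 0.0292). In all, 6 members passed an unadjusted p under 0.05 in all 4. The methods' t-test, run on the same values, called 0 members in all 4, adjusted or not. Leaving out 1 array turned the count of 0 into 1 in 5 cases and 3 without mϕ replicate 2 (Nr1h3, Pparg and Thra).

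Ahr, the sensor of indoles and of many plant and microbial compounds, had another pattern. It was high on all arrays and highest in CD103+CD11b+ DCs. The mϕ arrays read 8.97, 8.79 and 8.72, the CD103-CD11b- arrays 8.69, 9.19 and 8.81, the CD103+CD11b+ arrays 9.81, 9.83 and 9.56, the CD103-CD11b+ arrays 9.08, 9.56 and 9.12 and the CD103+CD11b- arrays 8.46, 9.11 and 8.94. The lowest CD103+CD11b+ array stood level with the highest CD103-CD11b+ array (9.5606 and 9.5596) and above all other arrays. Ahr was higher in CD103+CD11b+ than in CD103+CD11b- DCs by 0.90 (SE 0.18, adjusted p = 0.00303 by limma). Relative to CD103+CD11b+ DCs, the log2 difference was -0.90 for mϕ (adjusted p = 0.00162) and -0.83 for the CD103-CD11b- subset (adjusted p = 0.00818), all under the size limit. The Ahr difference of the CD103-CD11b- subset passed in 6 of 15 fits with 1 array left out (highest adjusted p 0.0408). Without the array highest in pancreatic markers in each population, the Ahr difference was -0.84 for mϕ (adjusted p = 0.0167), -0.94 for the CD103-CD11b- subset (adjusted p = 0.0294) and 0.99 between the 2 CD103+ subsets (adjusted p = 0.0135). CD103+CD11b+ and CD103-CD11b+ DCs differed by 0.48 (adjusted p = 0.34).

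In that comparison of the 2 CD103+ subsets, no member was called, beside 3.20% of all genes. Ahr and Ppard passed the adjusted p alone, 2 of 28 beside 6.99% of all genes, 5 members had an unadjusted p under 0.05, and the methods' t-test called 0 at either threshold. Without CD103+CD11b- replicate 2, Ahr was called (difference 1.03, adjusted p = 0.00242), and its adjusted p was 0.016 to 0.0176 without CD103+CD11b+ replicate 1 or 2 or CD103+CD11b- replicate 1.

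Of 10 measured targets and partners of Ahr, 1 was called in each of 2 comparisons. Over all genes, 5.57% were called in mϕ against the DCs and 3.20% between the 2 CD103+ subsets. Ahrr, the repressor that Ahr itself induces, was higher in mϕ by 1.63 (adjusted p = 4.3e-07 by limma), where it read 7.04, 7.04 and 7.87, against 5.45 to 5.98 on all DC arrays. Tiparp, an enzyme also induced by Ahr, was higher in CD103+CD11b+ DCs, at 9.73, 9.84 and 9.49, than in CD103+CD11b- DCs, at 7.91, 9.02 and 8.63 (difference 1.17, adjusted p = 0.00407). Ahrr was thus highest in mϕ, where Ahr differed from CD103+CD11b- DCs by -0.01 (adjusted p = 0.982), and Tiparp had its highest mean in the same subset as Ahr.

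In CD103-CD11b+ against CD103+CD11b- DCs, 1 member was called (Nr1h3), beside 3.17% of all genes, and 2 at any size (with Ppard), beside 6.72%. In CD103+CD11b+ against CD103-CD11b+ DCs, Nr1h3 was the single call under both rules, beside 0.461% and 0.823% of all genes. CD103-CD11b- DCs against the mean of the other 3 DC subsets gave 0 calls by limma under either rule, beside 1.02% and 3.19% of all genes. There 2 members (Ahr and Pparg) had an unadjusted p under 0.05, and no other tool was run on this average.

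Vdr, the vitamin D receptor, averaged 6.62 in mϕ and 6.61 over the DC subsets, a difference of 0.01 with a 95% interval of -0.43 to 0.45. Its arrays varied more than its groups. It read 6.01, 7.36 and 6.48 on the mϕ arrays and 6.59, 6.48 and 7.15 on the CD103+CD11b+ arrays. The 2 highest of all 15 values, on mϕ replicate 2 and CD103+CD11b+ replicate 3, were on the 2 arrays with the highest epithelial marker means (8.07 and 8.09). Vdr is a receptor that enterocytes also carry, and the part of epithelial RNA in these values was not tested. Nr5a2, known from intestinal crypts, pancreas and liver, likewise read 4.97 on mϕ replicate 2 and at most 4.48 on the other 14 arrays. Nr1h4, the bile acid receptor FXR, stayed between population means of 3.58 and 3.83.

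The clock receptors Nr1d1 and Nr1d2 (REV-ERBα and REV-ERBβ, haem-binding repressors of Bmal1) varied within populations. For Nr1d1 the mϕ arrays read 5.40, 6.15 and 5.30, the CD103-CD11b- arrays 5.37, 6.35 and 6.10, the CD103+CD11b+ arrays 5.36, 5.86 and 6.37, the CD103-CD11b+ arrays 5.75, 5.92 and 6.80 and the CD103+CD11b- arrays 5.72, 5.70 and 6.07. The spread within a population reached 1.05 and the population means lay within 0.54 of each other. Nr1d2 averaged 5.94 in CD103+CD11b+ DCs and 5.32 in the CD103+CD11b- subset, without overlap, but the difference of 0.62 did not pass (adjusted p = 0.0956 by limma). Rora, an activator at the same DNA elements, read 4.96, 4.61 and 4.92 in mϕ, overlapping the 4.19 to 4.86 of the DCs (difference 0.35, adjusted p = 0.0187). Against CD103+CD11b- DCs alone, Rora was higher in mϕ by 0.54, without overlap (adjusted p = 0.00554 by limma). That difference passed in 11 of 15 fits with 1 array left out (highest adjusted p 0.0292). Rorb stayed between 3.36 and 3.51 on average.

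Of the 14 other clock genes measured, 1 was called (Bhlhe40). Over all genes, 5.57% were called in mϕ against the DCs. The shares were 3.20% in CD103+CD11b+ and 3.17% in CD103-CD11b+ against CD103+CD11b- DCs. Bhlhe40, a repressor of clock genes that also acts in cytokine control, was lower in mϕ (-2.15, adjusted p = 1.0e-08 by limma) and higher in both CD11b+ DC subsets than in CD103+CD11b- DCs (1.996 in the CD103+ and 1.86 in the CD103- subset). It read 6.83 to 7.29 in mϕ, against 7.70 to 10.06 in DCs. At any size, 4 of the 14 had an adjusted p under 0.01 in mϕ against the DCs, beside 17.6% of all genes. Arntl, the gene of Bmal1, read 5.85 to 6.01 in mϕ and 5.25 to 5.66 in DCs. Clock read 7.03 to 7.37 in mϕ and 6.43 to 6.95 in DCs. Nfil3 read 9.78 to 9.85 in mϕ and 7.59 to 9.50 in DCs, and Tef 5.12 to 5.36 in mϕ and at most 5.01 in DCs. In the F test over the 5 populations Bhlhe41 also passed both limits (adjusted p = 0.00934 by limma, range of means 1.06).

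The steroidogenic and corepressor-like members gave no differences that passed. Nr0b1 and Nr0b2, which lack the DNA-binding domain of the family and repress other receptors, averaged 3.32 to 3.57 and 3.97 to 4.31 per population. Nr5a1, which controls steroid hormone synthesis in adrenal gland and gonads, averaged 4.74 to 4.99, and Nr1h5, a receptor close to FXR, 3.09 to 3.18.

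Coregulators are the proteins through which bound receptors switch genes on or off. Of 18 coregulators, 0 were called by limma in any of the 5 comparisons made for the lists, beside 0.461% to 5.57% of all genes. A count of 0 in so short a list lies near these shares. In each comparison 0 to 7 of them had an unadjusted p under 0.05. Ncoa4, also a ferritin receptor, and Ppargc1b, a coactivator of mitochondrial genes, were higher in mϕ by 0.68 and 0.45 (adjusted p of 7.8e-04 and 7.3e-04 by limma). Among 13 further nuclear receptors outside the symbol rule, 0 were called by limma in the same comparisons, beside the same shares of all genes. In each comparison 2 to 3 of these receptors had an unadjusted p under 0.05. Their RXR and retinoic acid receptor members include Rxra, the common partner, which read 7.81, 6.82 and 8.16 in mϕ and 6.34 to 6.88 in DCs (difference 0.99, adjusted p = 0.00109), and Rarb, which was lower in mϕ (-0.83, adjusted p = 3.1e-04). The lowest mϕ value of Rxra was again on replicate 2.

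Of 18 measured enzymes that make or clear receptor ligands, 4 were called in at least 1 of these 5 comparisons, beside 0.461% to 5.57% of all genes in any one of them. Aldh1a2, which makes retinoic acid, was the only one called between mϕ and DCs (-2.03), and Cyp26b1, which degrades it, was lower in both CD11b+ DC subsets than in CD103+CD11b- DCs (-2.26 in the CD103+ and -2.33 in the CD103- subset). In CD103-CD11b- DCs against the other DCs, Cyp7b1, an oxysterol-degrading hydroxylase, was higher by 2.08 (adjusted p = 4.4e-07 by limma) and Hsd11b1, which reactivates glucocorticoids, by 1.06 (adjusted p = 0.00306), and Aldh1a2 was lower (-1.58). Cyp7b1 read 6.84, 6.42 and 6.79 in CD103-CD11b- DCs and between 4.14 and 5.04 on the other 9 DC arrays. In this subset the mean of the plasmacytoid DC markers was 8.43 to 8.77, beside 6.68 to 7.70 in the other DCs, and that of the B and plasma cell markers was 8.63 to 9.24, beside 6.45 to 8.14, and the part of these cells in the enzyme values was not tested.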

How the data were processed

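RNA of sorted cells was amplified and hybridized to Affymetrix Mouse Gene 1.0 ST arrays. The authors made the deposited values with the Robust Multi-array Average (RMA), which subtracts background, normalizes by quantiles and summarizes probes into log2 signals. These log2 values were used as deposited, so a difference in total RNA between populations has been removed and no measure of depth applies, and the 3 arrays per population limit the precision. The genome build was not given in the sources used here.

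Of 35556 probesets, 21789 carried 1 symbol in the platform annotation, and 1621 with several and 12146 with none were left out. Where a gene had more than 1 probeset, the one with the highest mean was kept, which left 19938 genes. limma 3.58.1 (R 4.3.3) was fitted on all 15 arrays with 1 coefficient per population (lmFit, eBayes). Adjusted p-values are Benjamini-Hochberg over all genes of a comparison, and a call needed an adjusted p below 0.01 together with a difference of more than 1 on the log2 scale. SE and intervals come from that fit, and SD is over 3 arrays. The fit was tested on simulated data. Members called in any comparison were described in full and others by range, and list genes beyond the 2 largest in each direction were named after their values were seen. The members and lists were chosen with earlier results of these data known. Nr1i2 and Nr1i3 carry a letter outside the rule, and Nr1h2 and Nr2e3 were not among the 28 symbols found, so they were not analysed here. Median log2 signals per array were 5.00 to 5.14, and arrays of one population correlated at 0.978 to 0.995. Alternatives covered the replicate block, probeset choice, normalization, dim genes, spread model, thresholds, samples, the methods' t-test (named there for comparing groups and not for the arrays) and each array left out. Promoter windows came from RefSeq. Figures used Python 3.11 with matplotlib.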

Additional observations from a re-analysis of the deposited data

Results flagged for a closer look

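A result was flagged for 1 of the 28 members at an adjusted p under 0.05. The difference between CD11b+ and CD11b- DCs was not the same among CD103+ as among CD103- DCs. CD11b served only to sort the cells, so each pair compares 2 sorted populations. Pparg differed by -0.67 between CD103+CD11b+ and CD103+CD11b- DCs (adjusted p = 0.0214). In the CD103- pair it averaged 4.66 in CD103-CD11b+ DCs against 4.30 in the CD103-CD11b- subset, a difference that did not pass (unadjusted p = 0.061, adjusted p = 0.426, both by limma). The gap between these 2 differences, tested in the same limma fit, was -1.03 on the log2 scale (SE 0.25, adjusted p = 0.0267), which is under 0.05 and not under the 0.01 used for calls. Under 0.01 at any size this test passed 0 members, beside 267 genes higher and 251 lower over the whole array. The share of all genes under 0.05 is not given here. This gap was not among the differences repeated with arrays left out or under other settings. All 3 CD103+CD11b- arrays (5.03 to 5.25) lay above the other 9 DC arrays (4.03 to 4.74). These Pparg values are low, near or under the median signals per array (5.00 to 5.14).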

How the results depend on the processing

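With 3 arrays a group, small differences cannot be resolved, and the deposited quantile normalization cannot be undone. Of 38 single-gene differences with an adjusted p under 0.01, none reversed under any alternative: of 364 values under other settings 58 lost the threshold, and of 570 values with 1 array left out 56 did. The count of members called in mϕ against the mean of the DCs was 2, and it was 1 with genes of a mean under 5 left out (Pparg was not tested), 1 under treat against a log2 difference of 1, and 2 to 3 with 1 array left out. The count in all 4 mϕ comparisons was 0, and it was 1 after cyclic loess, 1 after median centring, 2 with array weights and 0 to 3 with 1 array left out. For CD103-CD11b+ against CD103+CD11b- DCs the single call of Nr1h3 became 0 under treat and 0 under the methods' t-test after adjustment, and stayed at 1 to 1 with 1 array left out. For CD103+CD11b+ against CD103-CD11b+ DCs it became 0 under both of these and 0 to 1 with 1 array left out. The count for CD103+CD11b+ against CD103+CD11b- DCs was 0 to 1 and that of the F test 3 to 5 with 1 array left out. The causes were not tested.

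Some settings were chosen after seeing the data. With no log2 threshold the counts were 6 in mϕ against the DCs, 5 in all 4 mϕ comparisons, 2 in CD103+CD11b+ and 2 in CD103-CD11b+ against CD103+CD11b- DCs, and 7 in the F test. Without the array highest in pancreatic acinar markers in each population, 2 members (Nr1h3 and Thra) were called in all 4 mϕ comparisons and 0 between the CD11b+ subsets.

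For this check the mean of its population was subtracted from each array, gene by gene. What remained correlated above 0.1 in 18 of 30 pairs of same-numbered arrays of different populations, with a mean r of 0.12. The mean r of -0.06 for arrays of different numbers follows largely from the subtraction and adds no evidence. Replicate 2 was highest in pancreatic markers in 4 of 5 populations. These are hints of a shared number that the labels do not explain, and since not every pair passed 0.1 the block was kept as an alternative. With the replicate number as a block, the counts were 2 in mϕ against the DCs, 0 in all 4 mϕ comparisons and 4 in the F test, as without it. The number of members over a log2 signal of 6 in any population was 11, and it was 14 at a limit of 5 and 5 at a limit of 7.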

Other observations

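Some members carried exactly the same value on several arrays, compared at 4 decimals. Nr6a1 read 5.7515 on 5 of 15 arrays and Ppara 4.2656 on 5, Nr2f6 read 6.6203 on 4 and Nr5a1 4.7789 on 4, and Nr1h5, Nr2f1 and Rorb shared a value on 3. A value shared by 3 or more arrays was found for 7 of 28 members and for 23.75% of all genes, so it was not particular to the receptors. Equal readings of such a gene on different arrays are therefore part of the deposited values and leave their order undecided.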
